A study of Mus musculus with 9 samples.

Results

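The 9 genes described here mark the dorsal or the ventral zone of the mouse main olfactory epithelium (MOE), or encode nuclear factor I (NFI) transcription factors with zonal roles. They were taken by name from the tables of raw and normalized read counts: Nqo1, Acsm4 and Robo2 as dorsal genes, Ncam2, Nrp2 and Sema3f as ventral genes, and Nfia, Nfib and Nfix as NFI factors. These are 9 of 24421 genes with raw counts, and all 9 were among the 19775 genes tested. The 9 RNA-seq libraries were made from whole MOE of C57BL/6 mice at postnatal day 14. There were 3 libraries from wild-type mice (WT), 3 from mice heterozygous for a deletion of TAAR enhancer 2 (het) and 3 from homozygous mice (homo). The deletion was made by CRISPR-Cas9 genome editing, and a single deletion line was used. The study describes littermates of the 3 genotypes, male and female mice, and a mixed background of C57BL/6J and 129 for the lines in general, whereas the strain label reads C57BL/6. Its replicates are counted as mice, and the labels give the sex and the litter of no library. Whole tissue carries no position, so the zone of each gene could not be checked here.

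The olfactory epithelium is divided into zones from dorsomedial to ventrolateral. Each olfactory sensory neuron (OSN) chooses its receptor from the set available in its zone and sends its axon to a matching part of the olfactory bulb. Most neurons that express trace amine-associated receptors (TAARs) lie in the dorsal zone. Nqo1, a quinone reductase induced by the redox factor NRF2, and Acsm4, a medium-chain acyl-CoA synthetase, are known dorsal zone markers. Robo2, a receptor for the repellent Slit proteins, is highest in dorsal neurons. Ncam2, an adhesion molecule of olfactory axons, is a known ventral zone marker. Nrp2, the neuropilin that binds Sema3F, is high in ventral neurons. Sema3F is known to be released by dorsal axons and to repel Nrp2-bearing axons, so its place among the ventral genes follows the list used and not its source, and the index of dorsal to ventral genes given below was computed both ways. NFIA, NFIB and NFIX bind DNA as dimers and act in the progenitors and young neurons of the lineage.

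The promoters of a few of these genes are shown with matches to the NFI motif, since the list holds zone markers and NFI factors together. RefSeq promoter windows of 300 bases around the start (build GRCm38.p6) were found for 7 of the 9 genes, in 12 windows. Those of Nfib and Sema3f were not analysed here. An NFI half-site, TTGGC or its reverse complement GCCAA, was searched on both strands, and capitals mark it. It was present in 4 of the 7 genes (6 of 12 windows) and in 46.7% of 32851 promoters of the same length. The Acsm4 window (chr7:119689776-119690075, + strand) and the Nqo1 window (chr8:107403156-107403455, − strand) each held 1 match, and the Ncam2 window (chr16:81200447-81200746, + strand) held none. A match is a description of the letters only.
Acsm4: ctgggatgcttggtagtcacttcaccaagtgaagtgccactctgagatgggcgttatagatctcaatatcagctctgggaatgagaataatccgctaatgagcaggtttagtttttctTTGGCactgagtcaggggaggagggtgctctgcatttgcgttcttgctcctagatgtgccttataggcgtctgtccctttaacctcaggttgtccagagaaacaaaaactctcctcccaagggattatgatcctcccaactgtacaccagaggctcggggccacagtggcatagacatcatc
Nqo1: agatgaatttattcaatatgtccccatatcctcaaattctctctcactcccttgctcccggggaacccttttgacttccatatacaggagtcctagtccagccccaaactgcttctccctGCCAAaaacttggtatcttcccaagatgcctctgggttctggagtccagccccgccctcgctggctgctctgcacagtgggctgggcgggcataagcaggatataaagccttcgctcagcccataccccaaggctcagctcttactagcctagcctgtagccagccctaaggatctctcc
Ncam2: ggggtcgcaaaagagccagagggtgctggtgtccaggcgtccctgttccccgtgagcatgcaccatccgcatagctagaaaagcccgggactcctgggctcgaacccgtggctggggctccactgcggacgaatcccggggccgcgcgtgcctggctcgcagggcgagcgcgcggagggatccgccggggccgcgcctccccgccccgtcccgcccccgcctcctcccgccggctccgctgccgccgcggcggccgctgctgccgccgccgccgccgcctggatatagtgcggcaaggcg

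Sequencing depth ranged from 20527992 to 32262005 counts per library. Each of the 9 genes had between 1233 and 12592 raw counts in every library, and counting error was at most 2.85% of a value. Levels are given as CPM, which are raw counts brought to one library size with TMM factors. All 10 mature OSN markers were detected, and their summed level was between 7030 and 8110 CPM in every library. Of the 5 blood markers, the 4 globin genes were listed at 0 in every library, while the other, Alas2, was at 14.7 to 27.6 CPM. The zeros therefore do not show that blood was absent. Libraries with replicate number 1 stood apart from numbers 2 and 3 across all genotypes, and WT replicate 3 stood apart from the other libraries in several of the genes described. Both are described with their values below.

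Levels of the genes relative to each other were compared per kilobase (kb) of the exons in GENCODE M21, an annotation of the files' build GRCm38. The length was the union of all exons, 16.983 kb for Robo2 and 11.842 kb for Nrp2. Their longest transcripts have 8591 and 6723 bases, while for Nqo1 and Acsm4 both lengths were the same. The levels and their order depend on this choice of length. Acsm4 was highest in WT, at 159 ± 20.8 CPM per kb (SD, n = 3), followed by Nqo1 at 96.5 ± 16.4. Nfix (24.4 ± 10.5), Nrp2 (24.3 ± 2.48), Sema3f (15.7 ± 3.37) and Nfib (14.4 ± 1.45) came next. Nfix and Nrp2 differed by less than their spread, as did Sema3f and Nfib. Robo2 (10.2 ± 1.46) and Ncam2 (8.89 ± 2.18) also differed by less than their spread, and Nfia was lowest at 4.85 ± 0.721 CPM per kb. Nfix, on chromosome 8 from 84699876 to 84800344, shares 137 exonic bases (1.86% of its exon length) with a gene on the opposite strand. Acsm4 lies on chromosome 7 from 119690026 to 119714565, and Nqo1 on chromosome 8 from 107388225 to 107403206, and neither shares exonic bases with another gene.

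TAAR enhancer 2 lies in the Taar gene cluster, whose receptors belong mostly to dorsal neurons, and the first question was whether genes that mark the zones differed between genotypes. None of the 9 genes was called between genotypes. A call required a Benjamini-Hochberg adjusted p under 0.05 and a fold change over 1.5 in the edgeR quasi-likelihood test. Among all genes tested, 0.0202% were called in homo against WT, 0% in het against WT and 0.00506% in homo against het. At an unadjusted p under 0.05 the count was also 0 of 9 in each comparison, against 3.45%, 1.28% and 0.662% of all genes, respectively. DESeq2 and limma-voom also called 0 of 9. The CPM ranges of homo and WT overlapped for every one of the 9 genes, where 5.68% of all genes did not overlap, and so did those of het and WT, where 3.95% did not.

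Among the dorsal genes, Nqo1 had 130.1, 141 and 179 CPM in WT, 149, 140.4 and 144 CPM in het, and 139, 166 and 148 CPM in homo libraries 1, 2 and 3. The WT range covered both other genotypes. The log2 fold change of homo against WT was 0.01 (SE 0.125, 95% interval −0.27 to 0.29, edgeR adjusted p = 1).

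Acsm4 had 337, 389 and 301 CPM in WT, 375, 400.2 and 348 CPM in het, and 368, 415 and 407 CPM in homo. Homo 2 and homo 3 were the highest of the 9 libraries, WT 3 was the lowest, and homo 1 lay below WT 2 and 2 of the het libraries. Its log2 fold change of homo against WT was 0.21 (SE 0.116, 95% interval −0.05 to 0.47), with an unadjusted p of 0.0985 and an adjusted p of 1 in edgeR. Without WT 3 the value was 0.12.

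Robo2 had 193, 182 and 146 CPM in WT, 208, 175 and 169 CPM in het, and 202, 179.6 and 181 CPM in homo. The highest value in each genotype was that of library 1. Homo differed from WT by a log2 fold change of 0.11 (SE 0.128, 95% interval −0.18 to 0.40), and without WT 3 by −0.0098.

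**Figure D1:**
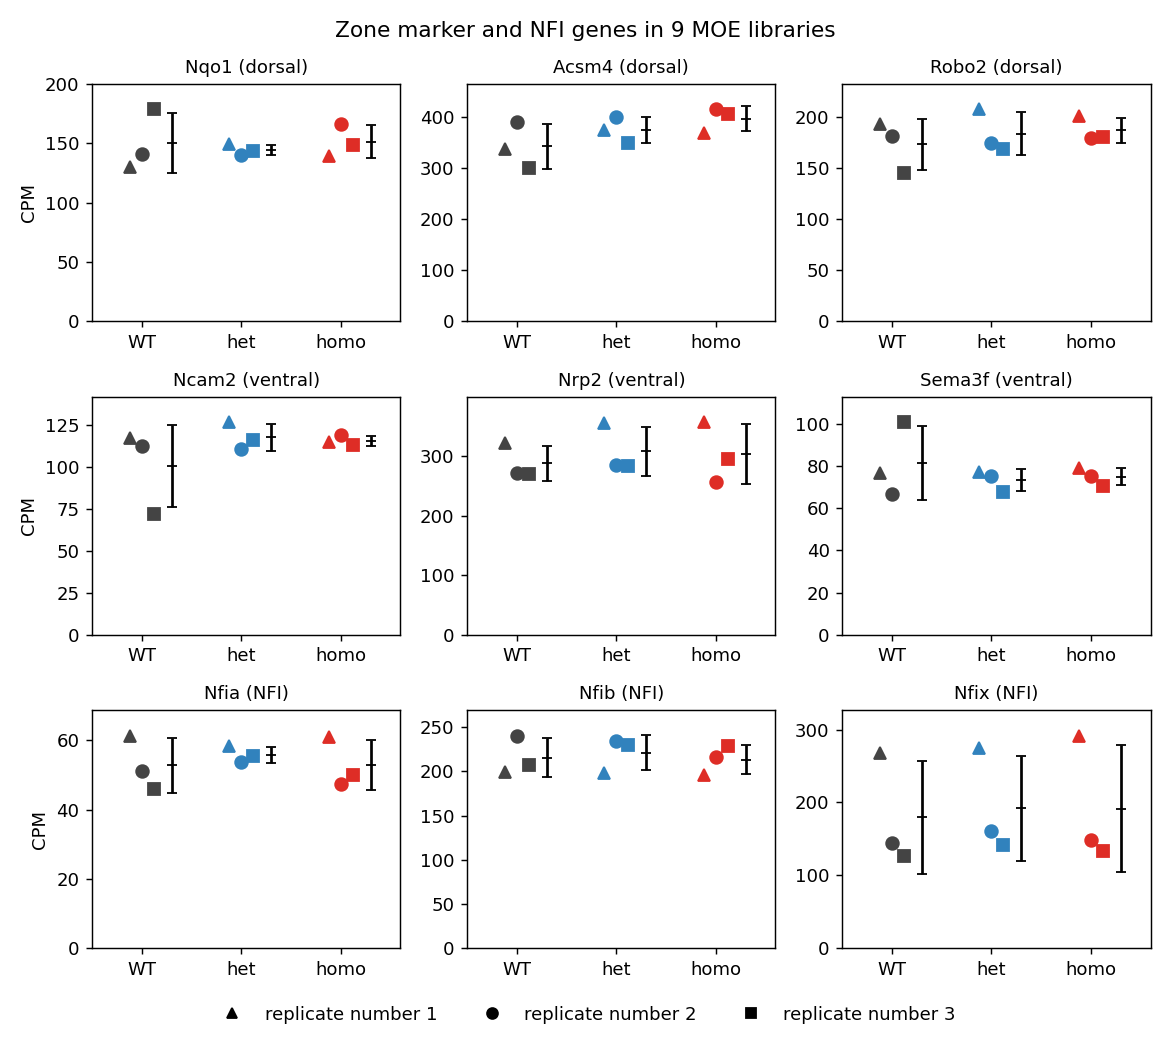
CPM of the 9 genes in each library, by genotype (WT, het, homo), with the replicate number as the symbol and bars showing mean ± SD (n = 3). Genotypes overlap in every panel, Nfix is about 1.96-fold higher in the libraries of number 1, and Ncam2 is lowest in WT 3 at 72.4 CPM.

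Among the ventral genes, Ncam2 had 117, 113 and 72.4 CPM in WT, 127, 111 and 116 CPM in het, and 115, 119 and 113 CPM in homo. A single low library, WT 3, set the WT mean. The log2 fold change was 0.20 in homo against WT (SE 0.162, 95% interval −0.16 to 0.57), and without WT 3 it was 0.0020.

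Nrp2 had 322, 272 and 269.9 CPM in WT, 355, 286 and 284 CPM in het, and 357, 257 and 295 CPM in homo. Library 1 was the highest in each genotype. Between homo and WT it differed by a log2 fold change of 0.07 (SE 0.147, 95% interval −0.26 to 0.41).

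Sema3f had 77.0, 66.7 and 101 CPM in WT, 77.5, 75.4 and 67.8 CPM in het, and 79.2, 75.2 and 70.8 CPM in homo. WT 3 was the highest of all 9 libraries. The log2 fold change of homo against WT was −0.12 (SE 0.143, 95% interval −0.44 to 0.20), and without WT 3 it was 0.05.

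Among the NFI factors, Nfia had 61.4, 51.1 and 46.0 CPM in WT, 58.3, 53.8 and 55.6 CPM in het, and 61.1, 47.3 and 50.1 CPM in homo. Nfib had 199.8, 240.4 and 207 CPM in WT, 198, 235 and 230.3 CPM in het, and 196, 216 and 228 CPM in homo. Nfib varied least of the 9 genes over the libraries, by 1.23-fold from lowest to highest. The log2 fold changes of homo against WT were 0.0017 for Nfia (SE 0.134) and −0.02 for Nfib (SE 0.111), with 95% intervals of −0.30 to 0.30 and −0.27 to 0.23.

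Nfix had 268, 144 and 126 CPM in WT, 274, 161 and 141 CPM in het, and 292, 148 and 134 CPM in homo. Within each genotype, library 1 was nearly 2-fold above the others. The log2 fold change of homo against WT was 0.09 with a wide 95% interval of −0.79 to 0.97 (SE 0.389). With a term for replicate number 1 in the model, an alternative added after the data were seen, it was 0.08 with an interval of −0.11 to 0.27 (SE 0.081).

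**Figure D2:**
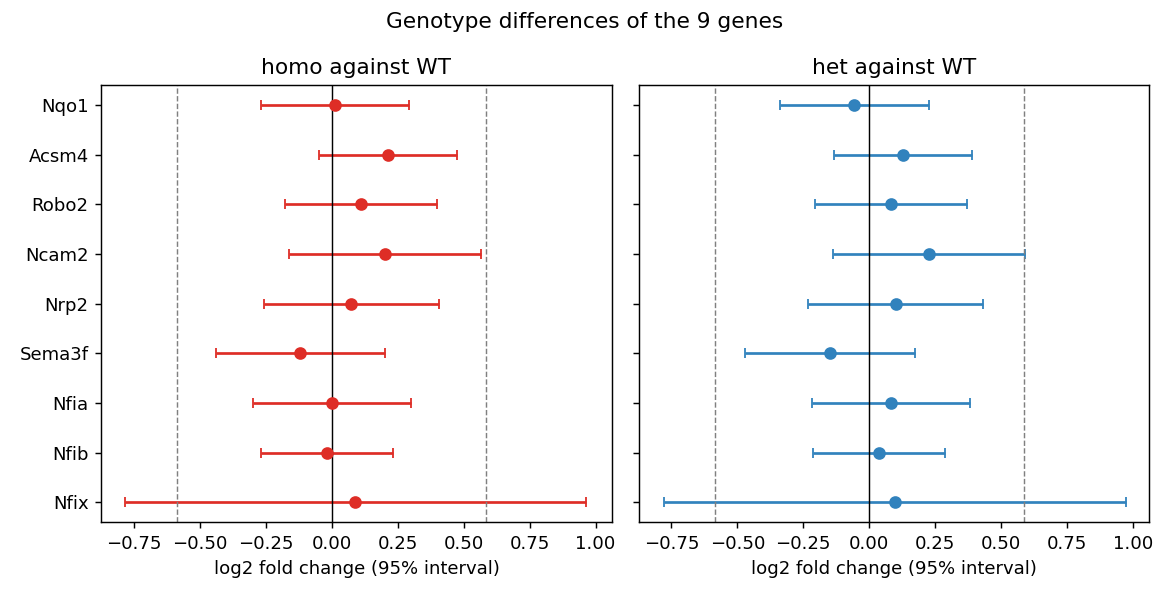
Log2 fold changes of the 9 genes in homo against WT (left) and het against WT (right), with 95% intervals from the edgeR model (n = 3 per genotype); dashed lines mark a 1.5-fold change. Every interval includes 0, and the Nfix interval in homo against WT, from −0.79 to 0.97, is the widest of that comparison.

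In het against WT, log2 fold changes of the 9 genes lay between −0.15 (Sema3f) and 0.23 (Ncam2), and in homo against het between −0.08 (Nfia) and 0.08 (Acsm4). Both ends of the het range rested on WT 3, without which Sema3f was at 0.03 and Ncam2 at 0.03 in het against WT. The intervals bound what could have been missed. In homo against WT, those of 8 of the 9 genes, all but Nfix, lay within a 1.5-fold change in either direction. In het against WT, the upper bounds for Ncam2 (0.59) and Nfix (0.97) reached past it. The medians of the 3 dorsal, 3 ventral and 3 NFI genes in homo against WT were 0.11, 0.07 and 0.0017, beside 0.0040 for all genes tested. In whole tissue, fewer cells of a type and less RNA per cell cannot be told apart.

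The dorsal and ventral genes were also combined in each library as an index, the mean log2 CPM of Nqo1, Acsm4 and Robo2 minus that of Ncam2, Nrp2 and Sema3f. Scaling of a library cancels in this difference. The index was 0.52, 0.76 and 0.66 in WT, 0.58, 0.68 and 0.64 in het, and 0.56, 0.81 and 0.74 in homo libraries 1, 2 and 3. WT libraries had a mean index of 0.65 ± 0.12, het libraries 0.63 ± 0.05 and homo libraries 0.70 ± 0.13 (SD, n = 3), so homo exceeded WT by 0.05, less than the spread within either genotype. Within numbers 1, 2 and 3, homo minus WT was 0.041, 0.047 and 0.072, and het minus WT was 0.062, −0.082 and −0.024. Homo was thus above WT at each number, whereas het was not, but the check of replicate numbers did not pair WT with homo. With each library left out in turn, homo minus WT of the index ranged from −0.013 to 0.125, so its sign was not stable. The 3 libraries of number 1 ranged from 0.52 to 0.58, below the 6 libraries of numbers 2 and 3, which ranged from 0.64 to 0.81. With Sema3f counted as dorsal, homo minus WT was −0.08 and het minus WT was −0.16, beside a WT SD of 0.28. In that form WT 3, at 0.26, was above all other libraries, which ranged from −0.29 to −0.0020. No test was made on these scores.

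**Figure D3:**
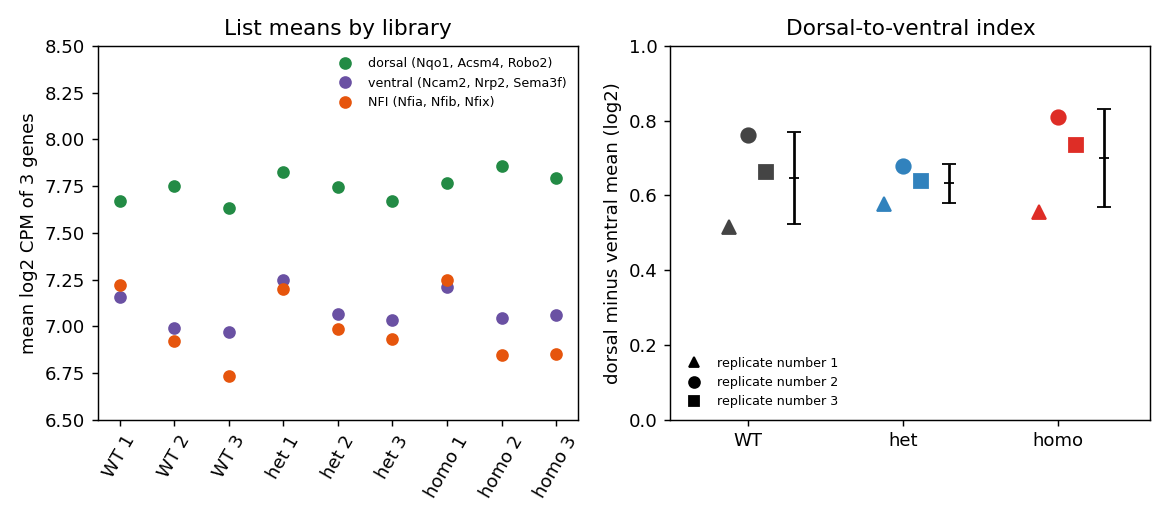
Left, mean log2 CPM of the 3 dorsal, 3 ventral and 3 NFI genes in each library; right, dorsal minus ventral mean by genotype, with the replicate number as the symbol and bars showing mean ± SD (n = 3). The genotype means of 0.65, 0.63 and 0.70 lie within their SDs, and the 3 libraries of number 1 are the lowest, at 0.52 to 0.58.

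Receptor genes assigned to zones by the study's probe table were summed for comparison with the zone markers. Olfr1034, a zone 1 gene of that table, was not in the list used here. The 10 dorsal Taar genes summed to 21.1 ± 3.19 CPM in WT libraries, 17.4 ± 0.813 CPM in the het libraries and 9.21 ± 0.532 CPM in the homo libraries (SD, n = 3), and homo was at 43.6% of WT. All 10 genes had log2 fold changes below 0 in homo against WT, 8 of them with an unadjusted p under 0.05 in edgeR. Of the 10, 2 were called lower. Taar9 had 0.271 CPM in homo and 2.89 CPM in WT (log2 fold change −3.39, SE 0.339, edgeR adjusted p = 0.0203), and Taar3 had 0.0519 and 1.59 CPM. Taar5 had 0.237 and 2.2 CPM (log2 fold change −3.24, SE 0.467) but was not called, with an edgeR adjusted p of 0.201. The paper's DESeq2 analysis reported Taar5 as significantly decreased. The ventral Taar genes Taar7a and Taar7b together were at 69.2% of WT in homo. Taar7a was called lower (log2 fold change −2.33, SE 0.246, edgeR adjusted p = 0.0233), whereas Taar7b had 4.98 CPM in homo and 4.8 CPM in WT. Taar6, one of the 2 Taar genes found in both zones, fell by 3.28 on the log2 scale (SE 0.179, edgeR adjusted p = 0.000322). The other, Taar7d, had 4.89 CPM in homo and 4.55 CPM in WT. Taar9, Taar3, Taar7a and Taar6 were all the genes called in homo against WT. None of the 12 zone 1 odorant receptor (OR) genes or the 3 OR genes of zones 2 to 5 was called, and their sums in homo were 110% and 129% of WT. Of the 3, Olfr1507 made up most of the sum in WT (47.7 CPM), beside Olfr1395 (5.23 CPM) and Olfr2 (4.14 CPM). Their log2 fold changes of homo against WT were 0.37, 0.34 and 0.36, respectively. The sum for zones 2 to 5 was 39.4 CPM in WT 3, and against WT 1 and WT 2 alone, homo stood at 118% for zone 1 and 112% for zones 2 to 5. On the same basis, homo stood at 47.3% for the dorsal Taar genes, 71.9% for the ventral ones and 51.5% for those found in both zones. The summed dorsal Taar level of homo, from 8.66 to 9.72 CPM, lay below the WT range of 18.1 to 24.5 CPM. The homo and WT ranges of Nqo1, Acsm4 and Robo2 overlapped. The paper puts TAAR neurons at a very small share of the whole MOE, so this overlap cannot show how these genes stood in those neurons.

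The pathways to which the 9 genes belong were described from lists. No gene was called in homo against WT or in het against WT among 9 Slit and Robo pathway genes, 14 class 3 semaphorin genes with their receptors, 4 NFI genes, 9 NRF2 redox genes, 4 tested Acsm genes and 17 retinoic acid genes. The genes with the smallest p in homo against WT were Srgap1 of the Slit and Robo list (log2 fold change 0.12), Sema3a of the semaphorin list (0.15), Nfic of the NFI list (0.11), Slc7a11 of the NRF2 list (−1.58), Acsm3 of the Acsm list (0.60) and Aldh1a2 of the retinoic acid list (0.21). Of these, Slc7a11 and Aldh1a2 had unadjusted p-values of 0.0278 and 0.0274, with an adjusted p of 1 in edgeR for both, and the WT levels of Slc7a11 and Acsm3 were shifted by WT 3, as given below. In het against WT the genes with the smallest p were Srgap3 (0.07), Sema3d (0.22), Nfia (0.08), Hmox1 (−1.19), Acsm3 (0.49) and Rxrb (−0.16), none with an unadjusted p under 0.05, and the values of Hmox1 and Acsm3 again included WT 3. The median log2 fold changes of the lists in homo against WT lay between −0.13 (NRF2) and 0.18 (Acsm).

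The second comparison set the 3 libraries of replicate number 1, 1 of each genotype, against the 6 of numbers 2 and 3, with genotype in the model. The labels do not say what the number stands for, and the contrast was chosen because these libraries were known to stand apart. They were also the shallowest, with 20527992 to 22292647 counts against 24905135 to 32262005. Nfix, which encodes an NFI factor of neural and progenitor cells, was the 1 of the 9 genes called. Among all genes 8.95% were called in this comparison. Nfix was at 268 to 292 CPM in number 1 and at 126 to 161 CPM in numbers 2 and 3. The ranges were far apart and the gene was higher in number 1 in all 3 genotypes, by 0.99 in WT, 0.87 in het and 1.05 in homo on the log2 scale. The log2 fold change was 0.97 (SE 0.07, 95% interval 0.81 to 1.13), a 1.96-fold difference with an edgeR adjusted p of 0.000119.

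At any fold change, 5 of the 9 genes had an adjusted p under 0.05, beside 31.6% of all genes, and the same 5 had CPM ranges that did not overlap, beside 34% of all genes. Apart from Nfix, these were Nrp2 (345 against 277 CPM, log2 fold change 0.31, adjusted p = 0.00413), Nfia (60.3 against 50.6 CPM, 0.25, adjusted p = 0.0186), Robo2 (201 against 172 CPM, 0.23, adjusted p = 0.036) and Nfib (198 against 226 CPM, −0.19, adjusted p = 0.0345) by the edgeR test. Nfib, the NFI factor with a log2 value below 0, thus moved opposite to Nfia and Nfix. Nqo1 (−0.13, 95% interval −0.34 to 0.08), Acsm4 (−0.06, −0.26 to 0.14), Ncam2 (0.16, −0.12 to 0.45) and Sema3f (0.04, −0.23 to 0.31) did not pass. The 5 fell to 2 (Nrp2 and Nfix) when WT 1, homo 1 or homo 2 was left out, to 3 (with Nfia) without het 1, het 2, het 3 or homo 3, and rose to 6 without WT 3, when Sema3f (0.15, adjusted p = 0.043 in edgeR) joined them.

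The fourth NFI gene, Nfic, was also called, at 162 to 188 CPM in number 1 and 77.1 to 95 CPM in the others (log2 fold change 1.05, SE 0.072, edgeR adjusted p = 0.000119). Nfix and Nfic have similar transcript GC content, 57.1% and 57.4%, against 42.7% for Nfia and 43.3% for Nfib. GC content was known for 96.5% of genes with a mean of at least 1 CPM, and the number 1 difference moved with it across these genes, from a median of −0.22 in the class of genes lowest in GC to 0.25 in the highest of 5 equal classes. In that highest class, 17% of genes were called higher in number 1. When counts were scaled within classes of GC content, an alternative added after the data were seen, Nfix remained called at 0.75 (adjusted p = 0.000611 in edgeR) and Nfib went to −0.04 (adjusted p = 0.542). In the same fit Ncam2, the gene of lowest GC content (38.2%), reached 0.40 (adjusted p = 0.0099), and Sema3f, the highest (58.4%), reversed to −0.22 (adjusted p = 0.0854).

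**Figure D4:**
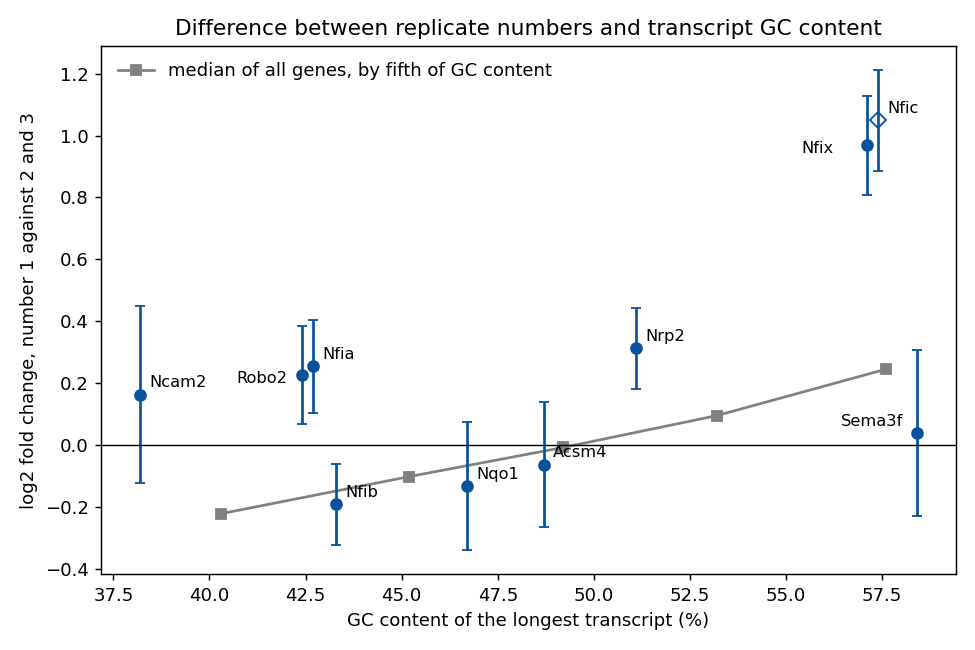
Log2 fold change of replicate number 1 against numbers 2 and 3 for the 9 genes (filled) and Nfic (open), with 95% intervals, by GC content of the longest transcript; the grey line joins medians of all genes by GC class. Nfix (0.97) and Nfic (1.05) lie far above the line, while Nqo1, Acsm4 and Nfib lie close to it.

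Marker genes of other cell types also moved with replicate number 1. The summed level of the 7 basal and progenitor markers was 296 to 348 CPM in number 1 and 182 to 197 CPM in numbers 2 and 3, 165% on average, and 4 of the 7 were called higher, among them the progenitor factor Neurog1. The 7 immature OSN markers summed to 2020 to 2040 CPM against 1370 to 1730 CPM (126%), with 3 called higher. The 6 fibroblast and bone markers stood at 152%, with 2 called higher, but 3 of the 6 had log2 fold changes below 0. The 5 motile ciliated markers stood at 130%, also with 2 called higher, and 2 of the 5 were below 0. The 6 olfactory ensheathing glia markers stood at 103%, with 3 called higher and 3 below 0. The mature OSN sum was at 98.8%, with 1 of 10 markers called higher, and the sustentacular sum was at 85.2%, with 0 of 5 called. No marker of these lists was at 0 in every library. The part of these cell types, of depth or of GC content in the Nfix difference was not tested.

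Other genes of these pathways were counted in the same comparison, in which 8.95% of all genes were called and 31.6% passed at any fold. In the retinoic acid list, 3 of 17 genes were called, all higher in number 1: the binding protein gene Crabp1 (101 against 56.8 CPM, log2 fold change 0.85), the degrading enzyme gene Cyp26b1 (0.73) and the receptor gene Rara (0.68). In the Acsm list, Acsm1 was called higher (8.53 against 3.94 CPM, 1.10). None of the Slit and Robo or semaphorin genes was called, and at any fold change 4 of 9 and 4 of 14 passed, with the smallest p for Robo1 (172 against 129 CPM, 0.42) and Nrp2. One of the semaphorin receptor genes that passed, Plxna3, was lower in number 1 (200 against 267 CPM, −0.41). Of the 12 zone 1 OR genes 3 were called, with Olfr1019 and Olfr639 lower and Olfr543 higher.

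WT 3 differed from the other libraries in genes of both zones. Ncam2, at 72.4 CPM, was below the 111 to 127 CPM of the other 8 libraries, and Robo2, at 146 CPM, was below their 169 to 208 CPM. Acsm4 was also lowest there, at 301 CPM. Sema3f at 101 CPM and Nqo1 at 179 CPM were the highest of the 9 libraries. The receptors of zones 2 to 5, of which Olfr1507 made up most of the WT mean, summed to 39.4 CPM against 62.4 to 85.2 CPM. The dorsal Taar sum was the highest at 24.5 CPM. The zone 1 OR sum was 63.5 CPM, within the range of 49.2 to 66.5 CPM of the others. Several other NRF2-regulated genes were highest in the same library, by margins that differed widely. Hmox1, which encodes heme oxygenase, was at 78.9 CPM against 12.3 to 19.4 CPM, and Slc7a11, a cystine transporter gene, at 67.3 CPM against 8.39 to 21.7 CPM. Txnrd1 (261 against 185 to 209 CPM), Gclc (195 against 142 to 181 CPM) and Srxn1 (39.8 against 30.8 to 35.3 CPM) stood closer to the others. Gclm and Keap1 were not examined for this library. Acsm3, a relative of Acsm4, was at 36.4 CPM against 63.7 to 110 CPM. The summed immature OSN markers were lowest in WT 3, at 1370 CPM against 1590 to 2040 CPM, and the endothelial markers highest, at 182 CPM against 116 to 164 CPM, while the mature OSN sum was within the range of the other libraries. The part of these cell types in the values of WT 3 was not tested. These values are a description, since the library was singled out from them.

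Genes that followed Nqo1 or Ncam2 most closely were found by the SD of the log2 ratio to the member over the 9 libraries, among 16143 other genes. For Nqo1 these were Ncoa3, Plekha7 and Sprtn (SD 0.07 for each, against a median of 0.24). For Ncam2 they were Ckap2 (0.05), Spc25 (0.06) and Elavl4 (0.07), against a median of 0.30. Among the 9 genes themselves, the ratio of Nrp2 to Nfia was the most constant (SD 0.09) and that of Nfib to Nfix the least (0.59). Pairs from the same list were not the most constant, and Nqo1 with Sema3f (0.14) varied less than Nqo1 with Acsm4 (0.23) or with Robo2 (0.26). The libraries share the number 1 difference, so these values describe these 9 libraries only.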

How the data were processed

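Directional, polyA-selected RNA libraries of whole MOE were sequenced. Per the labels and methods, the authors mapped reads to mm10 (GRCm38) and deposited raw read counts per gene symbol. The processing notes name Trimmomatic 0.36, HISAT2 2.1.0, featureCounts of Subread 1.6.2 and DESeq2 1.20.0. The annotation release, strand option and handling of shared reads are not given in the sources used here. The authors also deposited normalized counts, a signal made by dividing each raw count by 1 size factor per library. These normalized values were used for the index as an alternative.

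From the raw counts, 19775 genes with at least 10 counts over the 9 libraries were fitted in edgeR 4.0.16 (R 4.3.3) with TMM scaling and 1 spread estimate for all libraries. The two-sided quasi-likelihood test was used, with Benjamini-Hochberg adjustment over all genes. Standard errors came from the fitted model. DESeq2 1.42.0, limma 3.58.1 (voom), other scalings and filters, a replicate block and leaving out each library were alternatives. In simulated counts for homo against WT (19775 genes, 200 changed), 19% of 1.5-fold and 70% of 2-fold changes were recovered. The changed genes were drawn from higher-expressed genes, and recovery required an adjusted p under 0.05 but no fold threshold. Homo against WT itself had 4 calls, far fewer than the 200 planted changes. The rates may therefore overstate what a call would recover in these data.

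Replicate numbers recur in every genotype. Over 16152 genes, deviations from the genotype mean correlated between libraries of the same number by 0.67, 0.45 and 0.61 (WT with het), 0.79, 0.32 and 0.13 (het with homo) and 0.52, 0.29 and −0.10 (WT with homo). All 3 values exceeded 0.1 for WT with het and for het with homo, but not for WT with homo. Between different numbers, WT with het reached at most 0.03. Het 2 with homo 3 was at 0.59, however, het 3 with homo 2 at 0.52 and WT 2 with homo 3 at 0.51. By these values the numbers paired WT with het, but numbers 2 and 3 did not pair het with homo. Deviations from a mean of 3 libraries cancel out within a genotype, so positive values for the same number push the others down. The number 1 values also include the number 1 difference. The values therefore do not show what libraries of the same number had in common.

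The 9 genes, the lists and the comparison of replicate numbers were chosen with earlier results of these data known. Genes were named where they were among the 9, were called in a list (at most 3) or had the smallest p of a list without calls, or were the 3 most similar to Nqo1 or Ncam2. Marker genes, receptor genes and the genes named for WT 3 were named after their values were seen, unless this rule names them. Counting error excludes the spread between animals.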

Additional observations from a re-analysis of the deposited data

Results flagged for a closer look

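In 3 of the 9 genes, WT 3 was farther from the other libraries of numbers 2 and 3 (6 libraries) than Dixon's 95% limit allows. Its level was 72.4 CPM for Ncam2 (111 to 119 CPM in the other libraries), 146 CPM for Robo2 (169 to 182 CPM) and 101 CPM for Sema3f (66.7 to 75.4 CPM). Chance alone gives such a distance in about 1 in 20 groups, but that rate does not apply to a library already known to stand apart, and the 3 values come from the same library, so the distances are a description.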

How the results depend on the processing

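No alternative called any of the 9 genes between genotypes, and Nfix remained the 1 gene called in number 1 in every alternative (log2 fold change 0.75 to 1.02). The replicate block gave 0 of 9 called in each genotype comparison and changed no call of the 9 genes. It called 3 genes in all in homo against het, where the fit without it called 1. Counts over all genes ranged over the alternatives from 0 to 6 in homo against WT (4 as reported) and from 0 to 5 in homo against het (1 as reported). In replicate number 1 they ranged from 1168 (without homo 1) to 2219 (1769 as reported). Values near 0 changed sign in homo against WT. Nfia was −0.00611 with DESeq2 size factors, −0.0642 when scaled on OSN markers, −0.00187 with edgeR's own filter, −0.00575 with no filter, −0.00592 in DESeq2 and −0.0118 with GC scaling. Nqo1 was −0.0616 on OSN markers, −0.0275 without the libraries of number 1 and −0.000521 with GC scaling, and Nfib was 0.00443 on library totals. With GC scaling the number 1 value of Sema3f was −0.22. Scaled on OSN markers, 3 genes instead of 5 passed an adjusted p under 0.05 at any fold in number 1. With Sema3f counted as dorsal, the index differed by −0.0842 in homo and −0.16 in het from WT. The scalings differ only in how libraries are scaled, whereas the GC alternative scales each GC class of genes separately in each library. It can therefore shift genes relative to each other. Other causes of these shifts were not tested.

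With each library left out in turn, values in homo against WT ranged from −0.0687 to 0.148 for Nqo1, 0.118 to 0.313 for Acsm4, −0.0098 to 0.20 for Robo2, 0.0020 to 0.33 for Ncam2, −0.0588 to 0.173 for Nrp2, −0.248 to 0.0545 for Sema3f, −0.12 to 0.13 for Nfia, −0.062 to 0.0651 for Nfib and −0.35 to 0.51 for Nfix. In het against WT they ranged from −0.131 to 0.0822 for Nqo1, 0.0365 to 0.235 for Acsm4, −0.0341 to 0.18 for Robo2, 0.031 to 0.359 for Ncam2, −0.0151 to 0.201 for Nrp2, −0.272 to 0.027 for Sema3f, −0.0139 to 0.217 for Nfia, −0.0046 to 0.12 for Nfib and −0.25 to 0.52 for Nfix. The median of the ventral genes ranged from −0.0588 to 0.173 in homo and from −0.0151 to 0.201 in het. In number 1, Sema3f ranged from −0.0246 to 0.145, and 2 to 6 genes passed an adjusted p under 0.05 at any fold.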
